A study of Homo sapiens with 6 samples.

Results

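The clustered histone genes are the 71 protein-coding genes, of 58735 genes in the count table, whose symbols begin with HIST1H, HIST2H, HIST3H or HIST4H. The rule that chose them used symbol and biotype and no measured value, but earlier results of these data were known when it was set. By the protein they encode, 6 are H1 genes, 17 H2A, 18 H2B, 15 H3 and 15 H4. The HIST1 group on chromosome 6 holds 55 of them, chromosome 1 holds the 12 HIST2 and 3 HIST3 genes, and HIST4H4 lies on chromosome 12. The 6 RNA-seq libraries came from the cell line MDA-MB-231, derived from a human breast cancer that lacks hormone receptors. In 3 libraries the cells carried a DNAJC12 expression vector (DNAJC12 overexpression), and in 3 they carried the empty vector. The product of DNAJC12 is a co-chaperone with a J domain, and the comparison asked which transcripts change in level when it is supplied. The labels name no time after transfection and do not say whether the overexpressing cells were a pool or a clone, or whether the RNA was selected for poly(A).

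Core histones H2A, H2B, H3 and H4 form the protein spool of the nucleosome, and the linker histone H1 binds the DNA between nucleosomes. Most clustered histone genes are transcribed in S phase, when new chromatin is assembled, and their messages end in a conserved stem-loop in place of a poly(A) tail. The stem-loop is bound by SLBP, which acts in the cutting, export, translation and decay of these messages. Some of the same genes also give longer, polyadenylated messages that run past the stem-loop. H2A and H2B genes often stand head to head and share a promoter region.

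The stem-loops are shown first, because the short message ends there and the longer one runs past them. After the coding sequence of at least 1 annotated GENCODE 29 transcript, 32 of the 71 genes held a stem-loop match, which was read as GG, any 2 bases, CTT, any base, T, any base, A, any 3 bases and CC. Searched over the whole transcript, and so not only after the coding sequence, the same pattern occurred in 0.803% of 83047 other protein-coding transcripts. The search read the transcript strand only, and a transcript annotated only to its stop codon cannot show a match. The 5 genes below stand for 5 of the 6 forms found. The capitals mark the 16 bases of the stem-loop.
HIST1H2AC: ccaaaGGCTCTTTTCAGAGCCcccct
HIST1H2BD: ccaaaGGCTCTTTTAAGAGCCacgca
HIST1H4H: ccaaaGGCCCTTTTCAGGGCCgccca
HIST1H4I: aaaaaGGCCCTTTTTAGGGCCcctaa
HIST1H2AG: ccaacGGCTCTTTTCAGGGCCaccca
In GRCh38 these lie on chromosome 6, at 26124664 to 26124689 (plus strand), 26158582 to 26158607 (plus), 26285126 to 26285151 (minus), 27139649 to 27139674 (plus) and 27133510 to 27133535 (plus), in the order listed. The form of HIST1H2AC was the most frequent, in 17 genes. The forms of HIST1H2BD and HIST1H4H were each found in 5 genes, that of HIST1H4I in 3 and that of HIST1H2AG in 1.

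The promoters of 3 genes are printed because HIST1H2BK and HIST1H2AC passed the test for a higher level and HIST1H1C had the most counts of the 71. The RefSeq table (GRCh38.p14) gives 250 bases before and 50 after each gene's start, and 61 of the 71 genes matched an entry. The letters searched were CCAAT, the octamer ATTTGCAT and TATAAA, each on both strands, and the capitals mark every match.
HIST1H2BK: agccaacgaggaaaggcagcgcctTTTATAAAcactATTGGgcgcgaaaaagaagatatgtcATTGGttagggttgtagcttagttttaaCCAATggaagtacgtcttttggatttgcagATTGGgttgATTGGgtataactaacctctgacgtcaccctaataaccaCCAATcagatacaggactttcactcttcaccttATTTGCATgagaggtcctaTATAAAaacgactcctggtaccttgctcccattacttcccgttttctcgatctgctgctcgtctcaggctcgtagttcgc
HIST1H2AC: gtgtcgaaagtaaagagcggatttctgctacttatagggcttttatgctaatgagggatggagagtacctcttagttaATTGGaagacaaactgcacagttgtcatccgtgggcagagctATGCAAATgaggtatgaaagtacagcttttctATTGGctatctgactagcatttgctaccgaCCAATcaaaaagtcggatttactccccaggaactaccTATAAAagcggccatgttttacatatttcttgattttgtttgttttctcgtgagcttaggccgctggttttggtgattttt
HIST1H1C: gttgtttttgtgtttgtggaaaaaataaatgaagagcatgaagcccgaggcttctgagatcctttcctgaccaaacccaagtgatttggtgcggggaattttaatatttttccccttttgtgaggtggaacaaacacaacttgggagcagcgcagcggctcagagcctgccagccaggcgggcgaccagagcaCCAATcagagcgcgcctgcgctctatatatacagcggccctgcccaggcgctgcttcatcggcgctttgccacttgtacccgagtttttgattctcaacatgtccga
These are chr6:27146806-27147105 (minus strand), chr6:26123922-26124221 (plus) and chr6:26056421-26056720 (minus). HIST1H2BK held CCAAT 6 times, the octamer 1 time and TATAAA 3 times, where the run TTTATAAA counts on both strands. HIST1H2AC held CCAAT 3 times and the other 2 motifs 1 time each. HIST1H1C held CCAAT 1 time and neither of the others.

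Among the 61 promoters, 51 (83.6%) held CCAAT, against 35.7% of 27305 RefSeq promoters of this length, the first listed for each gene. TATAAA was in 41 (67.2%), against 12.0% of all. The octamer was in 25 (41.0%), against 1.80% of all. The octamer divided the classes: 11 of 14 H2A and 14 of 18 H2B promoters held it, and 0 of 6 H1, 0 of 10 H3 and 0 of 13 H4 promoters did. CCAAT was in every matched H1, H2A, H2B and H3 promoter and in 3 of 13 H4 promoters. A match describes these windows only. Where a histone gene had several entries, the one nearest the start of its gene model was used, a rule not applied to the 27305.

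DNAJC12 had 522, 523 and 492 counts in overexpression replicates 1 to 3, against 1, 0 and 0 in the empty vector libraries. Library totals ran from 18340306 to 18887497 counts with overexpression, against 17967283 to 18343249 with the empty vector. Of the line's own markers, VIM, CD44, AXL, MSN and CAV1 summed to 4690 to 5587 CPM (counts scaled to library size, with TMM normalization) with overexpression, against 4049 to 4494 with the empty vector. The 7 luminal markers summed to 2054 to 4133 CPM with overexpression, against 2227 to 2554 with the empty vector. Most of that sum was KRT8 and KRT18, with ERBB2, EPCAM and GATA3 contributing less and ESR1 and PGR at most 3 counts in any library, and 0 of the 7 were called. Of 3 endothelial markers, summed at 4.02 to 5.81 CPM with overexpression against 15.6 to 22.8 with the empty vector, PECAM1 was called lower, while CDH5 and VWF had at most 4 counts in any library. The 3 adipocyte markers summed to 0.250 to 0.627 CPM with overexpression, against 0.322 to 0.533 with the empty vector, with ADIPOQ and LEP at 0. The part of these markers in the histone results was not tested. Overexpression replicate 2 stood apart in GC content: the mean over counted genes, weighted by count, was 53.4% there against 50.8% and 51.7% in replicates 1 and 3. In the empty vector libraries it was 51.4%, 52.8% and 52.3% in replicates 1 to 3, where replicate 2 was highest but not apart from the others. Results are also given without both libraries numbered 2. Whether each library is a culture of its own is not in the labels, so a p-value here reflects spread among these 6 samples that may be technical.

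Few of the clustered histone genes were counted at more than a trace. Of the 71, 27 had 0 counts in every library (38.0%, against 18.8% of the 19951 protein-coding genes), 22 had some counts but too few for the test, and 22 were tested. A count of 0 in a library allows up to 3 counts, which is 0.150 to 0.190 CPM here, and covers counting error only. Between 36 and 41 of the genes had a count in any given library. The 5 most counted genes, HIST1H1C, HIST1H2BK, HIST1H2AC, HIST1H4I and HIST1H2BD, took 87.5% of the 70008 counts of all 71 over the 6 libraries.

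The H2B class had the most tested genes, 9 of 18, with 4 counted but not tested and 5 at 0. For H2A the numbers were 5, 5 and 7, for H4 3, 7 and 5, for H3 3, 5 and 7, and for H1 2, 1 and 3. The authors' deposited FPKM, a level per kilobase of gene model, puts genes of unequal length on 1 scale. On it HIST1H2BK stood highest, with 630, 774 and 714 in overexpression cells, against 329, 337 and 333 in empty vector cells. HIST1H1C had 341, 551 and 394 FPKM in overexpression cells, against 236, 264 and 232 in empty vector cells. HIST1H4I came next, with 47.4, 57.6 and 54.9 FPKM in overexpression cells, against 30.7, 28.8 and 25.7 in empty vector cells. HIST1H2AC had 59.1, 42.4 and 49.7 FPKM in overexpression cells, against 23.0, 23.3 and 21.3 in empty vector cells, so the order of these 2 genes was not the same in every library. The order of the first pair depends on the gene models, since those of HIST1H2BK (381 bases) and HIST1H1C (642 bases) hold little beyond the coding sequence.

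**Figure D1:**
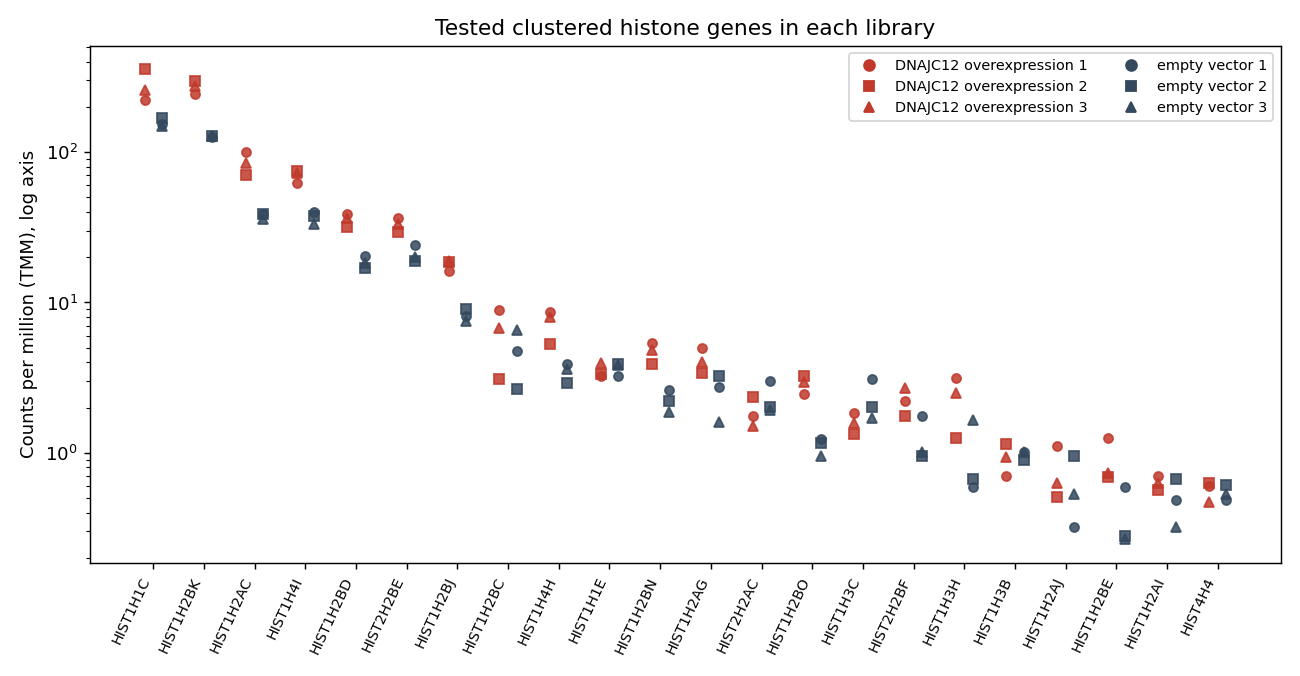
Each tested gene in each library, in CPM scaled by TMM on a log axis, ordered by mean level; red points are DNAJC12 overexpression and dark points empty vector, with the shape giving the replicate number. The 7 most abundant genes show every overexpression point above every empty vector point, while genes near 1 CPM mostly overlap.

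With DNAJC12 overexpression, an H2B gene and an H2A gene rose about 2-fold, and none of the 22 tested clustered histone genes was called lower. HIST1H2BK and HIST1H2AC were called higher by the edgeR quasi-likelihood test at a Benjamini-Hochberg adjusted p under 0.05, which is 2 of 22 tested genes beside 0.585% of all 14520 genes tested. The count of 0 called lower stands beside 0.661% of all genes; none was lower at an unadjusted p under 0.05, beside 6.86%, and none by the DESeq2 Wald test, beside 1.54%. Of the 22, 12 had every overexpression library above every empty vector library, beside 9.26% of all genes, and 0 had the opposite order, beside 10.8%. The order was read in CPM with TMM. For HIST1H2AG and HIST1H2BE it rests on the TMM factor of overexpression replicate 2, 0.853, the lowest of the libraries. A log2 fold change of at least 1 was found in 8, beside 3.43% of all genes. An unadjusted p under 0.05 with a higher level was found in 13, beside 7.25%. The log2 fold change was above 0 in 18 of 22 tested genes, with a median of 0.83, where 54.9% of all genes were above 0 with a median of 0.05. These genes are those with enough counts to be fitted, and the other 49 are described by their counts. In RNA from whole cultures, fewer cells of a type and less RNA per cell cannot be told apart.

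The number of calls depended on the fit. The DESeq2 Wald test called 6 histone genes higher, beside 1.58% of all genes, and edgeR with no filter 7, beside 1.34%. With limma on log2 FPKM, 4 were called at either pseudocount, beside 0.594% and 0.61%, and 0 with no filter, beside 0.0293%. Without overexpression replicate 1 there were 5 calls, beside 0.95%, and without overexpression replicate 2 there were 11, beside 12.1%. Without both libraries numbered 2, 12 of 23 fitted genes were called higher, beside 10.3% of all genes, and 0 lower, beside 8.41%. The added calls were HIST1H1C, HIST1H2AG, HIST1H2BD, HIST1H2BJ, HIST1H2BN, HIST1H2BO, HIST1H3H, HIST1H4H, HIST1H4I and HIST2H2BE. When overexpression replicate 3 was left out, 0 were called, beside 0.128% of all genes. With empty vector replicate 1, 2 or 3 left out in turn the count was 0 as well, beside 0.101%, 0.141% and 0.107%.

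**Figure D2:**
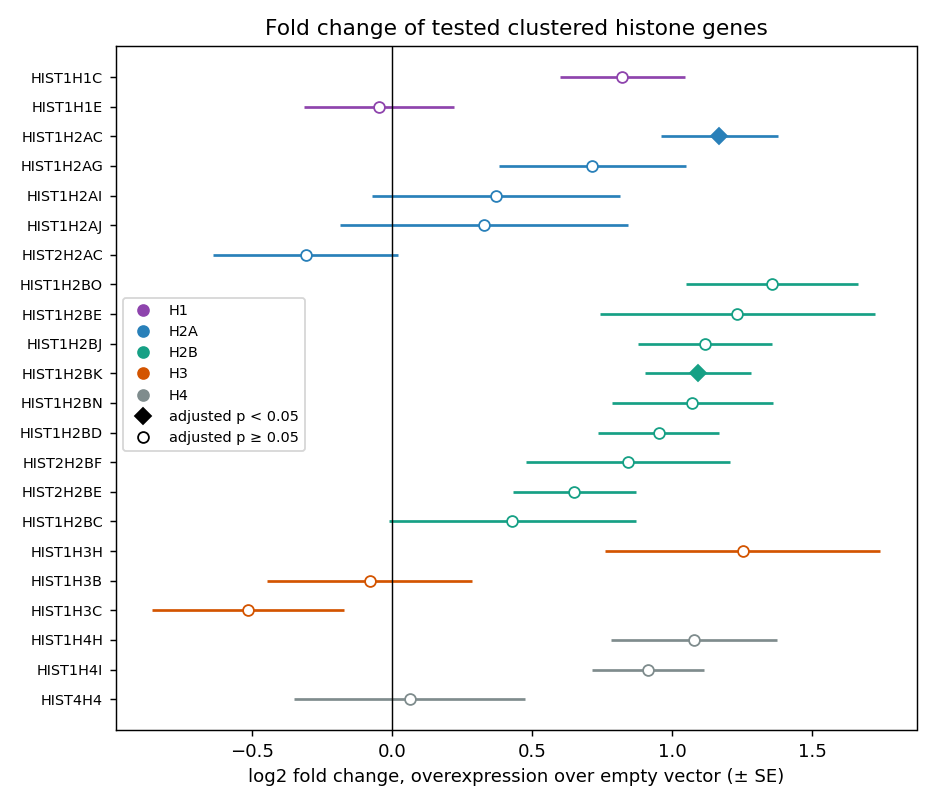
Log2 fold change of each of the 22 tested genes, DNAJC12 overexpression over empty vector, with bars of ± 1 standard error, grouped by histone class and coloured by it. Filled diamonds are the called genes HIST1H2BK and HIST1H2AC, open circles the other 20, and 18 of the 22 lie right of 0.

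Among H2B genes, HIST1H2BK (ENSG00000197903) had 4863, 4679 and 5298 counts in overexpression cells, against 2363, 2308 and 2393 in empty vector cells. That is 244, 296 and 277 CPM with overexpression, against 127, 128 and 128 with the empty vector. Every overexpression library stood near or above 2 times the empty vector level, and the empty vector libraries lay close together. The log2 fold change was 1.09 ± 0.19 (SE, n = 3 each), with an edgeR adjusted p of 0.0290. Leaving out each library in turn kept it between 1.03 and 1.16, with edgeR adjusted p from 0.000497 to 0.186. The gene, which encodes a replication-dependent H2B, lies on the minus strand of chromosome 6 at 27146418 to 27146798 in GRCh38 and has no intron in its annotated model.

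HIST1H2BD (ENSG00000158373) had 775, 506 and 703 counts in overexpression cells, against 379, 305 and 343 in empty vector cells, without overlap after scaling. Its log2 fold change was 0.95 ± 0.22 (edgeR adjusted p = 0.0689), which missed the threshold. Its annotation includes a spliced transcript that leaves out the stem-loop shown above. HIST1H2BJ had 16.2, 18.7 and 18.8 CPM in overexpression cells, against 8.16, 9.01 and 7.57 in empty vector cells, also without overlap. Its log2 fold change was 1.12 ± 0.24 (edgeR adjusted p = 0.0595). Both genes passed the threshold without both libraries numbered 2, at edgeR adjusted p of 0.000766 and 0.000791. HIST2H2BE, the most counted gene of the chromosome 1 groups, had 36.2, 29.3 and 33.3 CPM in overexpression cells, against 24.0, 18.9 and 20.0 in empty vector cells. The groups did not overlap, and the log2 fold change was 0.65 ± 0.22 (edgeR adjusted p = 0.216).

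HIST1H2BO had the largest log2 fold change of the tested genes, 1.36 ± 0.31 (edgeR adjusted p = 0.0678), from 49, 51 and 57 counts in overexpression cells against 23, 21 and 18 in empty vector cells. The groups stood well apart at these low counts. HIST1H2BN had 107, 62 and 93 counts in overexpression cells, against 49, 40 and 35 in empty vector cells, and its gene model spans HIST1H2AK and HIST1H2AL, both at 0. HIST1H2BE had 25, 11 and 14 counts in overexpression cells, against 11, 5 and 5 in empty vector cells, where the lowest overexpression library equals the highest empty vector library. Only with the TMM factors, 0.853 for overexpression replicate 2 and 1.02 for empty vector replicate 1, did every overexpression library of HIST1H2BE stand higher. By library totals alone, 18563750 and 18343249 for the same 2 libraries, the groups overlapped. HIST2H2BF and HIST1H2BC overlapped between groups, at log2 fold changes of 0.84 ± 0.36 and 0.43 ± 0.44. HIST1H2BC was low in both libraries numbered 2, with 179, 49 and 129 counts in overexpression cells, against 88, 48 and 124 in empty vector cells. HIST2H2BF overlaps FCGR1A, so reads of the 2 genes may not be told apart. All 9 tested H2B genes had a log2 fold change above 0, beside 54.9% of all genes. In 7 of the 9 every overexpression library was above every empty vector library, beside 9.26% of all genes.

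Among H2A genes, HIST1H2AC (ENSG00000180573) had 1996, 1122 and 1615 counts in overexpression cells, against 725, 700 and 670 in empty vector cells. That is 85.1 ± 14.5 CPM with overexpression and 37.8 ± 1.86 with the empty vector (SD, n = 3 each). The overexpression libraries were more spread, and the lowest of them, replicate 2, was still well above the empty vector libraries. The log2 fold change was 1.17 ± 0.21 (SE, n = 3 each), with an edgeR adjusted p of 0.0312. Leaving out each library in turn kept it between 1.03 and 1.28, with edgeR adjusted p from 0.000259 to 0.204. The gene lies on the plus strand of chromosome 6 at 26124145 to 26139116 in GRCh38, and its longest transcript with a stem-loop runs 1128 bases past it.

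The other tested H2A genes had fewer counts, and none passed the threshold. HIST1H2AG had 99, 54 and 77 counts in overexpression cells, against 51, 58 and 30 in empty vector cells. After TMM scaling, but not by library totals alone, the groups did not overlap (log2 fold change 0.72 ± 0.33, edgeR adjusted p = 0.380). HIST1H2AG passed without both libraries numbered 2, at an edgeR adjusted p of 0.0285. HIST2H2AC had 35, 37 and 29 counts in overexpression cells, against 56, 36 and 36 in empty vector cells, which overlap (log2 fold change -0.31 ± 0.33). HIST1H2AI and HIST1H2AJ had 6 to 22 counts a library and overlapped, at 0.37 ± 0.44 and 0.33 ± 0.51. Among untested H2A genes, HIST1H2AH had 4, 1 and 5 counts in overexpression cells, against 8, 7 and 16 in empty vector cells. That is the opposite order to HIST1H2AC, at counts too low for the test. HIST2H2AA3 and HIST2H2AA4 have identical coding sequences, so their 51 and 39 counts cannot be divided with certainty.

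Among H1 genes, which encode linker histones, almost all counts came from HIST1H1C (98.4% of the class CPM). HIST1H1C had 222, 355 and 257 CPM in overexpression cells, against 153, 169 and 150 in empty vector cells. The groups did not overlap, and replicate 2 was highest in each. The log2 fold change was 0.82 ± 0.22 (edgeR adjusted p = 0.126). Without both libraries numbered 2 it was 0.66, and passed at an edgeR adjusted p of 0.00436. HIST1H1E, another somatic linker histone gene, had 65, 53 and 76 counts in overexpression cells, against 60, 70 and 72 in empty vector cells. These overlap, with a log2 fold change of -0.05 ± 0.27. HIST1H1T, known as a testis linker histone gene, had 2 counts in overexpression replicate 2, 3 in empty vector replicate 2 and 0 elsewhere. HIST1H1A, HIST1H1B and HIST1H1D were at 0.

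Among H4 genes, most of which encode the same protein, HIST1H4I carried 87.6% of the class CPM. HIST1H4I had 62.3, 74.7 and 72.2 CPM in overexpression cells, against 40.2, 37.4 and 33.4 in empty vector cells. The groups were apart, with a log2 fold change of 0.91 ± 0.20 (edgeR adjusted p = 0.0617). HIST1H4H had 8.67, 5.31 and 8.04 CPM in overexpression cells, against 3.92, 2.89 and 3.62 in empty vector cells. It too did not overlap, at 1.08 ± 0.30 (edgeR adjusted p = 0.132). Both passed without the libraries numbered 2, at edgeR adjusted p of 0.000603 for HIST1H4I and 0.00435 for HIST1H4H. HIST4H4, the lone chromosome 12 gene, had 12, 10 and 9 counts in overexpression cells, against 9, 11 and 10 in empty vector cells. HIST1H4C, with 11, 9 and 9 counts in overexpression cells against 10, 3 and 12 in empty vector cells, and HIST1H4K, with 13, 4 and 6 against 6, 4 and 4, were not tested. The coding sequences of HIST1H4K and HIST1H4J are identical, as are those of HIST2H4A and HIST2H4B.

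H3 was the class with the fewest counts among the core histones, and its tested genes had fold changes of both signs. HIST1H3C had 37, 21 and 30 counts in overexpression cells, against 58, 36 and 32 in empty vector cells. These overlap, with a log2 fold change of -0.52 ± 0.34 (edgeR adjusted p = 0.552), the lowest of the 22. HIST1H3B had 14, 18 and 18 counts in overexpression cells, against 19, 16 and 19 in empty vector cells, at -0.08 ± 0.37. HIST1H3H had 63, 20 and 48 counts in overexpression cells, against 11, 12 and 31 in empty vector cells. The groups overlap, with a log2 fold change of 1.25 ± 0.49 (edgeR adjusted p = 0.295). Of the 3, HIST1H3H is the gene whose annotation runs past the stem-loop. HIST1H3A, not tested, had 9, 10 and 9 counts in overexpression cells, against 6, 9 and 9 in empty vector cells.

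Summed by class, H2A, H2B, H4 and H1 stood higher with overexpression and H3 did not. H2B genes summed to 376 ± 18.4 CPM in overexpression cells and 185 ± 4.98 in empty vector cells (SD, n = 3 each), a log2 ratio of 1.02. H2A genes summed to 94.0 ± 15.4 CPM in overexpression cells and 45.3 ± 3.05 in empty vector cells, a log2 ratio of 1.05. H4 genes summed to 79.5 ± 4.92 CPM in overexpression cells and 42.4 ± 3.81 in empty vector cells, a log2 ratio of 0.91. In these 3 classes no library of the groups overlapped.

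H1 genes summed to 282 ± 68.7 CPM in overexpression cells and 161 ± 10.9 in empty vector cells, without overlap and with a log2 ratio of 0.81. H3 genes summed to 5.69 ± 0.64 CPM in overexpression cells and 5.45 ± 0.48 in empty vector cells, which overlap (log2 ratio 0.06). Over all 71 genes the sum was 837 ± 72.2 CPM in overexpression cells and 440 ± 13.6 in empty vector cells, a ratio of 1.90.

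The sums rest on few genes. Without its most abundant gene, the H2B sum kept a log2 ratio of 0.85 and the H4 sum 0.86, both without overlap. Without HIST1H2AC the H2A ratio was 0.26, and without HIST1H1C the H1 ratio was -0.05, both with overlap. As summed FPKM the H3 ratio was -0.20, with every overexpression library below every empty vector library. The 49 untested genes summed to 4.81 ± 0.40 CPM in overexpression cells and 4.63 ± 0.39 in empty vector cells, which overlap. With 3 libraries a group the smallest p of an exact permutation test is 0.1, and the sums were not tested.

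**Figure D3:**
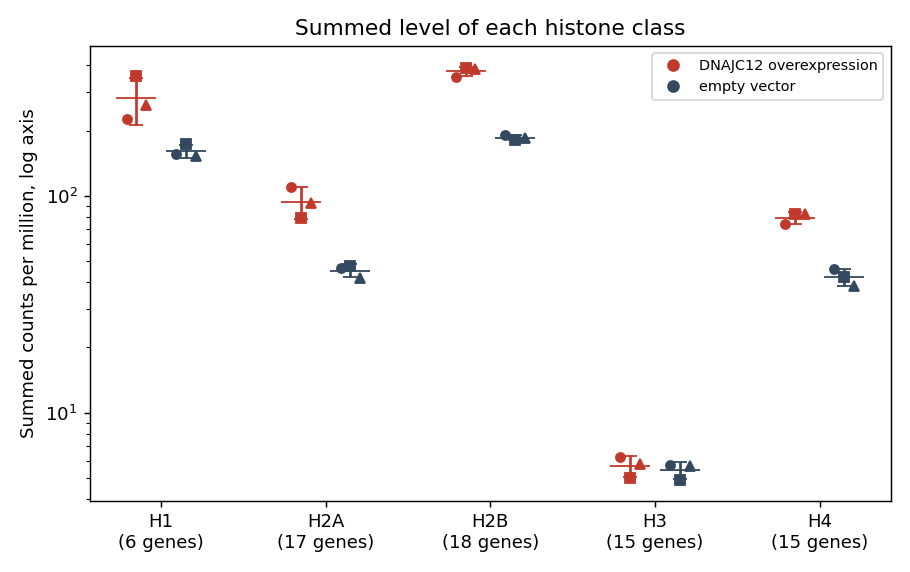
Summed CPM of all genes of each histone class in each library on a log axis, with DNAJC12 overexpression in red to the left of empty vector in dark, lines and bars giving mean ± SD (n = 3 each). The groups are apart for H1, H2A, H2B and H4 and overlap for H3.

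Genes at 0 lay side by side on chromosome 6. Across 84.6 kb, chr6:26188765-26273356, from HIST1H4D to HIST1H2BI, 14 of 15 clustered histone genes had 0 counts in every library. HIST1H2BH had the 2 counts found there, both in overexpression replicate 3. All 21 annotated genes of that stretch together had those 2 counts, although 6 of the 15 have annotated ends past the stem-loop. No source used here says how reads matching several genes were treated, so genes without transcripts and genes whose reads were not counted cannot be told apart there. Just outside it, HIST1H2BE had 71 counts and HIST1H4H 604 over the 6 libraries. A shorter stretch of 8.16 kb, from HIST1H2AL to HIST1H4L, held 4 of the genes, all at 0.

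**Figure D4:**
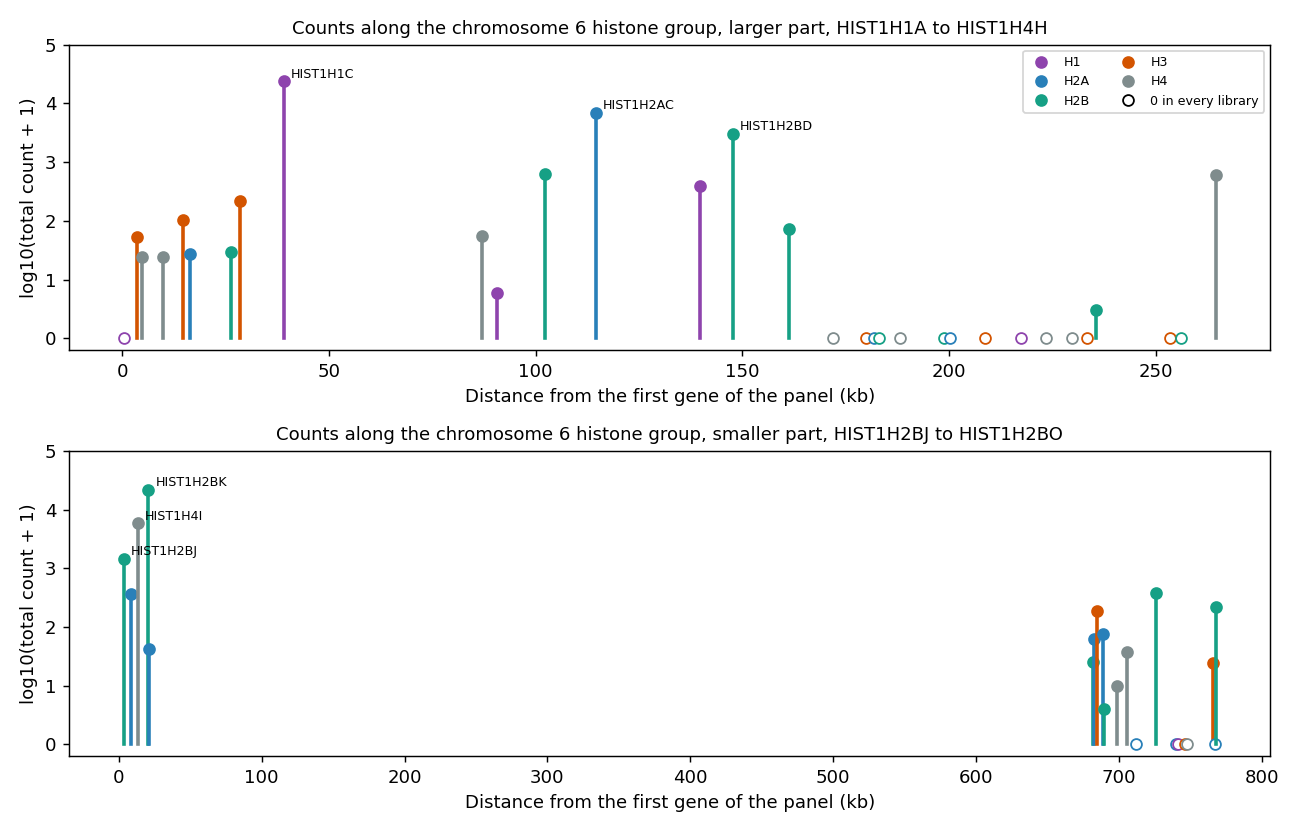
Total count of each HIST1 gene over the 6 libraries, as log10 of the count plus 1, by distance in kb from the first gene of each panel. HIST1H2AA and HIST1H2BA, both at 0, lie outside the panels and are not shown. Colour gives the class and open circles genes at 0 in every library. HIST1H1C, HIST1H2AC and HIST1H2BD stand high in the upper panel, and a stretch of 14 genes at 0 broken only by HIST1H2BH follows before HIST1H4H.

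Divergent pairs often differed in level. Within 500 bases, 12 head-to-head pairs were found. HIST1H2BO enters more than 1 of these pairs, with HIST1H3J and with HIST1H2AM, whose gene models overlap. In 4 of the 12 pairs both genes were at 0. HIST1H2BK and HIST1H2AH, 330 bases apart, had mean FPKM of 520 and 0.938, from 21904 and 41 counts over all libraries. HIST1H2BC and HIST1H2AC, 218 bases apart, had 6.49 and 36.5 FPKM, from 617 and 6828 counts. HIST1H2BJ and HIST1H2AG, 291 bases apart, had 13.6 and 1.46 FPKM, with log2 fold changes of 1.12 and 0.72. HIST2H2BE and HIST2H2AC, 322 bases apart, were closer in level at 12.2 and 5.31 FPKM, and their log2 fold changes, 0.65 and -0.31, had opposite signs. Neither of the last pair passed the threshold.

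Detection was also counted by the annotated end of the message. Annotation ran at least 100 bases past the stem-loop in 23 genes, of which 11 were tested and 8 were at 0. Another 2, HIST1H2BD and HIST1H2BJ, have long or spliced ends without a match to the stem-loop pattern, and both were tested. Of the 38 genes annotated with the coding sequence or a short end without a match to the pattern, 8 were tested and 18 were at 0. Of 8 genes ending near the stem-loop, 1 was tested and 1 was at 0. The differences between these sets were not tested.

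Among tested genes with an extended annotated end, 9 of 13 had every overexpression library above every empty vector library, beside 9.26% of all genes. The 9 include HIST1H2AG and HIST1H2BE, for which this order rests on the TMM factors. The median log2 fold change of the 13 was 0.95, with a range of 0.06 to 1.25. Among the other tested genes, whose annotation stops at or soon after the coding sequence, 3 of 9 had this order. Their median was 0.33, with a range of -0.52 to 1.36. HIST1H2AC is in the first set, and HIST1H2BK is in the second. The annotations of HIST1H2BK and HIST1H1C hold 0 bases after the coding sequence, so how their messages end is not known here. The 2 sets also differ in GC content, 39.5% to 49.1% in the first and 57.5% to 62.8% in the second. The difference between them was not tested.

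Near-identical copies limit these values. Pairwise identity of coding sequences had a median of 89.2% within H2B, the highest of the classes, and 69.3% within H1, the lowest. The closest relative of HIST1H2BK is 94.0% identical to it and that of HIST1H2AC 89.3%. The sources used here give neither the strand setting nor the treatment of reads that map to several genes, so the division of counts among close copies is uncertain.

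The gap of replicate 2 was also set against GC content among these genes. The gap of overexpression replicate 2 to the mean of replicates 1 and 3 had a Pearson r of 0.41 and a Spearman rho of 0.36 with GC content over the 22 tested genes. For empty vector replicate 2 they were 0.32 and 0.16. These genes share the libraries and range from 39.5% to 62.8% GC, and the values are a description. With a GC correction, 10 of the 22 were called higher, beside 8.81% of all genes, and 0 lower, beside 8.45%. The part of GC content in the calls was not tested.

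**Figure D5:**
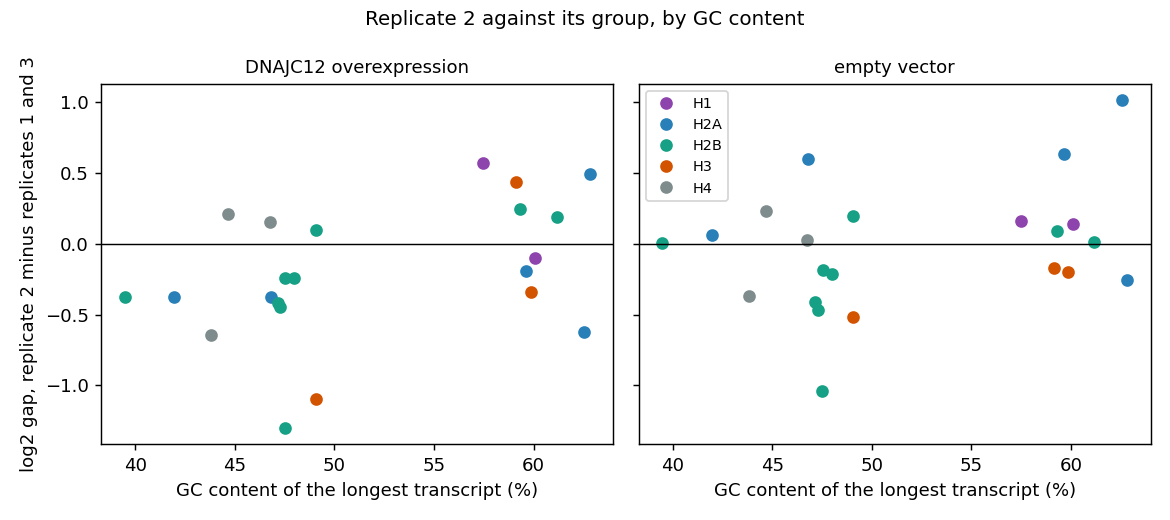
Log2 gap of replicate 2 to the mean of replicates 1 and 3 of its group against GC content of the longest transcript, in percent, for the 22 tested genes, with DNAJC12 overexpression left and empty vector right; colour gives the histone class. In the left panel most genes in the lower group of GC content lie below 0, and those in the upper group are scattered about 0.

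In the edgeR fit to all 6 libraries, 0 genes of the 4 comparison lists of histone supply were called higher, beside 0.585% of all genes, or lower, beside 0.661%. Calls under other settings differed and are given by list. Of the variant histones, many of which are made throughout the cell cycle from messages with a poly(A) tail, 0 of 11 tested were called by edgeR, DESeq2 or limma. A log2 fold change above 0 was found in 9 of the 11, where 54.9% of all genes were above 0, and the median was 0.20. In 6 every overexpression library was above every empty vector library, beside 9.26% of all genes. An unadjusted p under 0.05 was found in 3, H2AFY2, H1F0 and H1FX, each higher, beside 7.25%. The GC correction called 3 higher, beside 8.81% of all genes, and the fit without both libraries numbered 2 called 1, beside 10.3%. H2AFX, the variant marked at DNA breaks, had 299, 595 and 388 CPM in overexpression cells, against 314, 452 and 381 in empty vector cells, which overlap. H2AFZ, a variant found at promoters, had 584, 466 and 519 CPM in overexpression cells, against 465, 455 and 449 in empty vector cells, which do not (log2 fold change 0.20 ± 0.19, edgeR adjusted p = 0.689).

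Of the factors that transcribe, process and degrade histone messages, 0 of 25 were called by edgeR, DESeq2 or limma, with 2 at an unadjusted p under 0.05, ZNF473 and SNRPF, both lower, beside 6.86% of all genes. The GC correction called 2 lower, beside 8.45%, and the fit without both libraries numbered 2 called 2 higher and 2 lower, beside 10.3% and 8.41%. SLBP, the stem-loop binding protein, had 82.8, 76.0 and 95.4 CPM in overexpression cells, against 116, 93.7 and 107 in empty vector cells. These overlap, with a log2 fold change of -0.32 ± 0.20 (edgeR adjusted p = 0.526). SNRPB, a core protein of small nuclear ribonucleoproteins, had 301, 567 and 377 CPM in overexpression cells, against 353, 483 and 426 in empty vector cells, which overlap.

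Of the histone chaperones, which carry histones to DNA, 0 of 18 tested were called by edgeR and by limma, while DESeq2 called 1 lower, beside 1.54% of all genes. At an unadjusted p under 0.05 there were 2, HJURP and CHAF1A, both lower, beside 6.86% of all genes. The GC correction called 4 lower, beside 8.45%, and the fit without both libraries numbered 2 called 5 lower and 1 higher, beside 8.41% and 10.3%. ASF1B, a chaperone of H3 and H4, had 63.1, 126 and 73.3 CPM in overexpression cells, against 108, 127 and 108 in empty vector cells, which overlap. SSRP1, a subunit of the FACT complex, had 279, 352 and 296 CPM in overexpression cells, against 352, 352 and 308 in empty vector cells, and these overlap too.

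The S-phase genes mostly had fold changes opposite in sign to the abundant histone genes. Of 20 tested, 0 were called by edgeR or limma, and DESeq2 called 1 lower, beside 1.54% of all genes. The GC correction called 10 lower, beside 8.45%, and the fit without both libraries numbered 2 called 8 lower, beside 8.41%. Of the 20, 17 had a log2 fold change below 0, where 6548 of all 14520 genes did, and the median was -0.32. An unadjusted p under 0.05 was found in 9, each lower, beside 6.86% of all genes. In 9 every overexpression library was below every empty vector library, beside 10.8% of all genes. PCNA, the sliding clamp of DNA replication, had 131, 89.7 and 127 CPM in overexpression cells, against 189, 152 and 152 in empty vector cells. The groups did not overlap, and the log2 fold change was -0.50 ± 0.22 (edgeR adjusted p = 0.347). MCM7, a subunit of the replicative helicase, had 360, 630 and 429 CPM in overexpression cells, against 437, 536 and 480 in empty vector cells, which overlap.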

How the data were processed

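The 6 libraries, 3 DNAJC12 overexpression and 3 empty vector, were grouped and numbered by their titles. For each of 58735 genes the deposited tables give a raw count and an FPKM per library, both computed by the authors. The submitters' processing notes name HISAT2 2.0.5 and hg19. Yet the chromosome, start, end and strand of all 58735 genes equal GENCODE 29 on GRCh38, the build used for coordinates here. No source used here names the counting program, its strand setting or its handling of reads with several matches. Totals ran from 17967283 to 18887497 counts.

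From the counts, CPM with TMM normalization and the edgeR 4.0.16 quasi-likelihood test (R 4.3.3) were computed over 14520 genes kept by filterByExpr (minimum count 10, minimum total 15). P-values were adjusted by Benjamini-Hochberg over all of them, with a threshold of 0.05. Standard errors are the absolute log2 fold change divided by the square root of F. No covariate was used. The steps were tested on simulated data. Alternatives were DESeq2 1.42.0 (size factors, and its Wald test), dropping the filter, requiring 1 CPM in 3 libraries, a block for replicate number, libraries left out, a GC correction (loess, span 0.3), and limma 3.58.1 on log2(FPKM + 1) and log2(FPKM + 0.1), with a filter of 0.5 FPKM in 3 libraries or none. A pseudocount understates changes of low genes.

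Histone genes and the 4 comparison lists were chosen with earlier results of these data known. The genes named in detail are those called, the 4 highest by mean FPKM in each class, the 4 largest and 4 smallest log2 fold changes, and for each comparison list the 2 most abundant genes. HIST1H1B met the rule at 0 counts. HIST1H2AH, HIST1H2AI, HIST1H2BC, HIST1H2BH, HIST1H2BN, HIST2H2BF, HIST4H4, HIST2H2AA3 and HIST2H2AA4 were named after their values were seen, as were the list genes named for an unadjusted p. Stem-loops were read from GENCODE 29 transcripts and promoters from RefSeq (GRCh38.p14). Python 3.11.15, pandas 2.3.3, Biopython 1.88 and matplotlib 3.10.9 were used for tables and figures. A further list of marker genes is not reported here.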

Additional observations from a re-analysis of the deposited data

How the results depend on the processing

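HIST1H2BK and HIST1H2AC kept a log2 fold change above 0 in all the fits run, and no clustered histone gene was called lower in any of them. Calls higher were 2 with edgeR, 6 with the DESeq2 Wald test, 7 with no filter, 10 with the GC correction, 4 with limma at either pseudocount, 0 with limma and no filter, 12 without both libraries numbered 2 and 0 to 11 with a library left out. HIST1H2BK and HIST1H2AC lost the call in limma with no filter (limma adjusted p of 0.124 and 0.135) and in the 4 fits with 0 calls. The cause was not tested. Over all genes, 85 higher and 96 lower became 265 and 258 with DESeq2, 366 and 322 with no filter, 1279 and 1227 with the GC correction, 8 and 4 with limma and no filter, 1514 and 1240 without both libraries numbered 2, and 15 to 1806 and 6 to 1560 with a library left out. Same-numbered deviations correlated at 0.45, 0.58 and 0.03, and those of unlike number at -0.58 to 0.22. Whether replicate numbers pair the libraries was not settled by these values, and the main fit used no pairing. A replicate block called 11 histone genes higher (6.96% of all genes), with 1011 higher and 926 lower over all genes. Beside 6.96% higher and 6.38% lower over all genes, calls with the block were 1 higher among variant histones and 1 higher and 2 lower among histone mRNA factors. They were 1 higher and 3 lower among chaperones and 7 lower among S-phase genes.

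With the GC correction they were 3 higher among variant histones, 2 lower among mRNA factors, 4 lower among chaperones and 10 lower among S-phase genes, and with DESeq2 or no filter 1 lower in each of the last 2 lists. Without both libraries numbered 2 they were 1 higher among variant histones, 2 higher and 2 lower among mRNA factors, 1 higher and 5 lower among chaperones and 8 lower among S-phase genes. With a library left out, calls higher were 0 to 2 for variant histones, 0 to 2 for mRNA factors and 0 to 1 for chaperones. They stand beside 0.101% to 12.1% of all genes. Calls lower were 0 to 2 for mRNA factors, 0 to 6 for chaperones and 0 to 9 for S-phase genes, beside 0.0403% to 10.4%. The median log2 fold change of fitted histone genes, 0.83, was 0.34 with DESeq2, 0.33 with no filter, 0.25 and 0.44 with limma at pseudocounts of 1 and 0.1 and 0.16 with limma and no filter. The H1 median, 0.39, was -0.058, -0.073 and -0.023 with DESeq2, no filter and limma with no filter. The H2A median, 0.37, was 0.72 with the 1 CPM filter, 0.999 without both libraries numbered 2 and 0.36 to 0.85 with a library left out. The H2B median, 1.07, was 0.33 with limma and no filter. The H3 median, -0.081, was -0.54 with DESeq2, -0.56 with no filter, 0.37 with the 1 CPM filter and -0.25 to 0.079 with a library left out. The H4 median, 0.91, was 0.46 with DESeq2, 0.44 with no filter, 0.24, 0.46 and 0.16 in the limma fits, 0.46 without both libraries numbered 2 and 0.51 to 0.71 with a library left out. The log2 ratio of sums was 0.83 for H2A and -0.20 for H3 as FPKM. Without its most abundant gene it was -0.055 for H1, 0.26 for H2A, 0.85 for H2B and 0.37 for H3. With a library left out the H3 ratio ran from -0.013 to 0.15. HIST1H1E was 0.067 with the GC correction and 0.024 without both libraries numbered 2. With a library left out HIST1H2AJ ran from -0.078 to 0.78 and HIST1H3B from -0.25 to 0.079. The 49 untested genes had too few counts for the test, and the cause was not tested. Intervals and floors cover counting error only.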

Other observations

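Among 19 histone-named genes that are not annotated as protein coding, 6 had a count, 399 in all, and 2 were tested. HIST2H2BA had 48, 11 and 32 counts in overexpression cells, against 10, 18 and 9 in empty vector cells. These overlap, with a log2 fold change of 1.25 ± 0.51 (edgeR adjusted p = 0.317). HIST2H2BC had 55, 18 and 36 counts in overexpression cells, against 25, 13 and 29 in empty vector cells, which also overlap (0.68 ± 0.43, edgeR adjusted p = 0.525). HIST2H3DP1, not tested, had 20, 5 and 12 counts in overexpression cells, against 2, 5 and 4 in empty vector cells. In all 3, overexpression replicate 2 was the lowest library of its group. They were named after their values were seen.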
